A study of Mus musculus with 6 samples.

Results

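The genes described here are 10 genes of the TREM receptor pathway in BV2, a transformed mouse cell line derived from microglia, and the question was how their RNA differed after the cells met soluble TREM-1. They were taken by symbol: the receptors Trem1, Trem2 and Treml2, the adaptors Tyrobp (DAP12) and Hcst (DAP10), and the genes Syk, Lat2, Plcg2, Inpp5d and Card9 of the SYK arm. All 10 were found among the 46095 gene symbols of the count table, and all 10 passed the filter on low counts. Cells of the CON group were left untreated, and cells of the sTREM-1 group were incubated with the recombinant protein at 1 μg/mL for 6 h, with 3 RNA libraries in each group. BV2 is not primary microglia, and the labels do not say whether the wells of a group came from separate passages, so p-values measure only the spread between these libraries.

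TREM-1 and TREM-2 are surface receptors of myeloid cells whose short tails cannot signal alone, and they pair in the membrane with DAP12. The product of Treml2 is not known for this pairing. When DAP12 is phosphorylated by SRC family kinases it recruits the kinase SYK, which acts through scaffolds such as LAT2, the phospholipase PLCG2 and the CARD9 complex, while DAP10, a related adaptor, recruits PI3K. TREM-1 is known as an amplifier of inflammation, TREM-2 as a lipid-sensing receptor of microglia, and soluble TREM-1 is the ectodomain released from the membrane receptor.

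Compared with the CON group, and relative to library size, 5 of the 10 genes rose after sTREM-1 (Trem2, Syk, Plcg2, Inpp5d and Card9), and Lat2 fell. The rises were small, and relative to Actb those of Trem2, Plcg2 and Inpp5d were within the spread of the libraries. Relative to Gapdh, which itself spread widely, the means of all 5 turned below the CON level with overlapping groups. There sTREM-1 replicate 3 lay above all CON libraries for each of the 5. Lat2 stayed lower relative to Gapdh without overlap. The rises lay between 1.09-fold and 1.16-fold, and Lat2 fell to 0.825 of its CON level. The adaptor Tyrobp, the receptors Trem1 and Treml2, and Hcst did not pass the test. A gene was called where edgeR gave a p-value under 0.05 after Benjamini-Hochberg adjustment over all 14120 genes tested, and log2FC stands for the log2 fold change of sTREM-1 against CON with its standard error (SE). Of all tested genes 30.5% were called, 16.5% as higher and 14.1% as lower, so calls were common. The test also finds abundant genes more readily. Levels are in CPM, counts relative to the TMM-scaled library total. Among genes of at least 20 CPM, 45.2% were called (25.1% higher), against 6 of the 8 members at that level. When a 1.5-fold minimum was added, 2.13% of all genes and 0 of the 10 were called, since the largest change among the called members was that of Lat2.

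**Figure D1:**
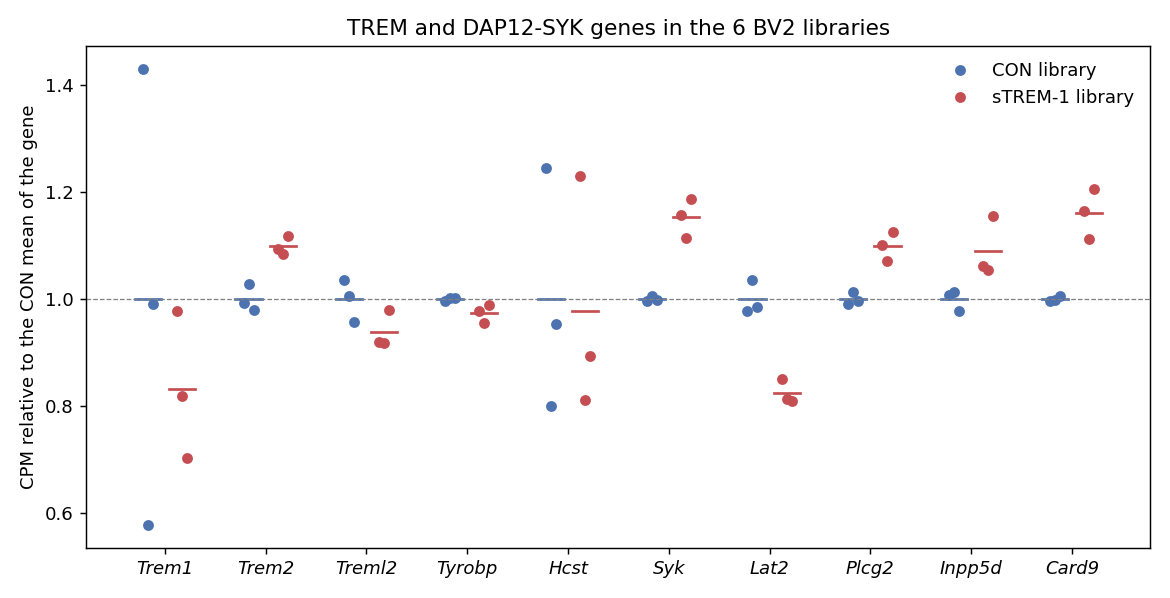
Each point is 1 library and shows CPM divided by the CON mean of that gene (vertical axis, no unit), with horizontal bars for group means, CON in blue and sTREM-1 in red. All 3 sTREM-1 libraries lie above all 3 CON libraries for Trem2, Syk, Plcg2, Inpp5d and Card9 and below them for Lat2, while Trem1 and Hcst scatter widely in both groups.

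The libraries were deep and close to each other. Total counts ran from 40070633 to 45877107, and the biological coefficient of variation within a group was 3.99%. Markers of macrophages were abundant, with 15649 to 18459 counts of Itgam, 24307 to 26263 of Cd68 and 21212 to 34670 of Csf1r. The markers Cx3cr1, P2ry12 and Tmem119 of resting microglia had at most 93 counts in any library, and Sall1 had 0. The 12 genes of the microglia and macrophage list summed to 2233 to 2267 CPM in the CON group and 2497 to 2555 CPM after sTREM-1, a shift that includes Csf1r, with log2FC 0.53. The part of this shift in the results was not tested, and in bulk RNA more cells of a type and more RNA per cell cannot be told apart. Markers of other cell types were near 0, with sums of at most 0.0235 CPM for T and NK cells, 0.302 for neurons, 0.479 for astrocytes, 0.659 for neutrophils and 0.938 for fibroblasts and endothelium. The fibroblast and endothelium sum did not overlap, with 0.294 to 0.464 CPM in the CON group and 0.479 to 0.938 CPM after sTREM-1. Oligodendrocyte markers summed to 7.31 to 7.94 CPM in the CON group and 5.58 to 6.70 CPM after sTREM-1, with Mog at 0. Aif1, which encodes IBA-1, was listed at 0 in all 6 libraries. Its chromosomal neighbours Lst1, Tnf and Ltb, and H2-D1, which most cells express, were also listed at 0 there, and were named after their values were seen. A listed 0 is therefore not read as absence of the RNA.

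The signaling motifs that separate both adaptors are shown first, because the receptors depend on them. DAP12 carries an immunoreceptor tyrosine-based activation motif (ITAM), a pair of spaced tyrosines that SYK binds, whereas DAP10 carries a single tyrosine in a motif that binds PI3K. Each motif was located in the longest complete coding sequence of the GENCODE M21 transcripts, and the lines below give the coding bases 5′ to 3′ with tyrosine codons in capitals and introns removed.
Tyrobp: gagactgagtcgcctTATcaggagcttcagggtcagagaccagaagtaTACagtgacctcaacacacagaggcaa
Hcst: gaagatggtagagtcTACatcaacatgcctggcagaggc
The Tyrobp stretch covers codons 87 to 111 of 114, with tyrosine codons 92 and 103, and lies on chr7:30415655-30417397 of GRCm38, + strand. The Hcst stretch covers codons 67 to 79 of 79, with tyrosine codon 72, on chr7:30417809-30418088, − strand. The genes are neighbours whose 3′ ends face each other 126 bp apart.

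Trem1, the membrane receptor whose ectodomain was added, was barely expressed. It had 42, 17 and 29 counts in CON replicates 1, 2 and 3, and 32, 25 and 20 counts in sTREM-1 replicates 1, 2 and 3. The groups overlapped, and CON replicates 1 and 2 held the highest and the lowest count. The log2FC was -0.26 (SE 0.39; edgeR, adjusted p = 0.68), and its 95% interval ran from 0.481-fold to 1.45-fold. Without CON replicate 1 it was 0.09. A processed pseudogene of 2431 bp lies within Trem1 on the other strand.

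Trem2 (chr17:48346401-48354147, GRCm38), which binds lipids and apolipoproteins, was counted 4716, 4893 and 4638 times in CON and 5799, 5366 and 5150 times in sTREM-1. Scaled to library size, these were 115, 119 and 114 CPM against 127, 126 and 130 CPM, and every sTREM-1 library lay above every CON library. The mean rose from 116 ± 2.94 to 128 ± 2.03 CPM (SD over 3 libraries each), with log2FC 0.14 (SE 0.03; edgeR, adjusted p = 0.00098).

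Treml2, a receptor encoded in the same gene cluster, had 54.4, 52.9 and 50.3 CPM in the CON libraries and 48.3, 48.2 and 51.5 CPM after sTREM-1. sTREM-1 replicate 3 lay within the CON range. The log2FC was -0.09 (SE 0.04), with an unadjusted p of 0.048 and an adjusted p of 0.12 from edgeR, so the difference did not pass after adjustment over all genes.

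The TREM genes of the mouse lie side by side on the + strand of chromosome 17, over 134.4 kb from chr17:48232768-48367176 in GRCm38. Along this strand the order was Trem1, Trem3, Treml4, Treml2, Trem2 and Treml1. Treml2 and Trem2 had at least 2043 counts in every library, whereas the other 4 genes had at most 64 in any library. Trem3 had 13 to 30 counts in the CON group and 25 to 40 after sTREM-1. Treml1 had 33 to 45 and 41 to 64 counts, and Treml4 had 2 to 12 and 5 to 24 counts, respectively. None of the 3 neighbours outside the list of 10 was called (0 of 3 by edgeR, 0 of 3 at an unadjusted p under 0.05, and 0 by DESeq2).

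Tyrobp, the DAP12 adaptor, did not pass the test. Its CPM values were 299, 301 and 301 in the CON libraries and 294, 287 and 297 in the sTREM-1 libraries. The groups did not overlap, and the difference of 300 ± 1.07 against 293 ± 5.03 CPM (SD over 3 libraries each) had log2FC -0.04 (SE 0.02; edgeR, adjusted p = 0.26). The 95% interval ran from a fold of 0.941 to 1.01. Across all tested genes the groups did not overlap for 40.7%, against 7 of the 10 members, and for 54.2% of genes of at least 20 CPM, against 7 of the 8.

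Hcst, the DAP10 adaptor, had few counts, with 59, 38 and 45 in the CON group and 65, 40 and 41 after sTREM-1. Both groups covered nearly the same range. The log2FC was -0.03 (SE 0.30; edgeR, adjusted p = 0.96), with a 95% interval from -0.64 to 0.58, and its sign turned without CON replicate 1, sTREM-1 replicate 2 or sTREM-1 replicate 3.

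Because Trem2 and Tyrobp form 1 receptor complex, their counts were also divided within each library. Trem2 counts per Tyrobp count were 0.385, 0.396 and 0.378 in the CON libraries and 0.432, 0.438 and 0.437 after sTREM-1. All sTREM-1 values lay above all CON values (two-sided exact permutation p = 0.1, which 3 against 3 cannot go below). Syk counts per Tyrobp count ran from 1.015 to 1.021 in the CON group and from 1.188 to 1.222 after sTREM-1. For Lat2 the ratio was 0.545 ± 0.016 in CON and 0.461 ± 0.015 in sTREM-1 (SD over 3 libraries each). Neither of these ratios overlapped between the groups (two-sided exact permutation p = 0.1 each). For Trem2 and Syk the separation followed from the CPM values and adds no support. Both genes lay higher, and Tyrobp lower, in every sTREM-1 library than in every CON library.

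The reference genes Actb and Gapdh, which encode actin and a glycolytic enzyme, rose as well, with log2FC 0.12 and 0.25 (edgeR, adjusted p = 5.3e-05 and 0.00022). The 6 called members were therefore also divided by each of these within a library, after the data were seen, with the CON mean set to 1. Relative to Actb, Trem2 was at 1.01 ± 0.024 after sTREM-1, Plcg2 at 1.01 ± 0.012 and Inpp5d at 1.003 ± 0.031 (SD over 3 libraries). For these 3 genes the groups overlapped (two-sided exact permutation p = 0.5, 0.5 and 0.8). Syk at 1.06 ± 0.0058 and Card9 at 1.07 ± 0.0063 lay above all CON libraries, and Lat2 at 0.759 ± 0.033 below them (two-sided exact permutation p = 0.1 each). Gapdh itself spread widely after sTREM-1, with 117, 111 and 92.4 CPM. Relative to Gapdh the means of all 5 genes that rose lay below 1, between 0.932 and 0.990, and their groups overlapped. For each of these 5 genes sTREM-1 replicate 3, where Gapdh was lowest of its group, lay above all CON libraries. In sTREM-1 replicates 1 and 2 they lay below all CON libraries. Lat2 at 0.700 ± 0.076 did not overlap.

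Syk (chr13:52583173-52648792, + strand), the kinase that docks on the phosphorylated ITAM, had the smallest p-value of the 5 members that rose. It had 305, 308 and 305 CPM in the CON libraries and 354, 341 and 363 CPM in the sTREM-1 libraries. The lowest sTREM-1 library lay well above the highest CON library. The log2FC was 0.21 (SE 0.03; edgeR, adjusted p = 1.7e-07), with a 95% interval from 0.15 to 0.26.

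Lat2, the membrane scaffold also called NTAL that is phosphorylated by SYK and LYN, moved the other way. It had 160, 170 and 161 CPM in the CON libraries and 139, 133 and 132 CPM after sTREM-1. The groups did not overlap, and the log2FC was -0.28 (SE 0.03; edgeR, adjusted p = 2.4e-08). Lat2 on the − strand of chromosome 5 (chr5:134600022-134615025, GRCm38) overlaps the end of Rfc2 on the + strand by 1784 bp, and the sources used here do not say whether counting used the strand. Rfc2, a subunit of the DNA replication clamp loader, rose from 33.0 ± 1.72 to 43.1 ± 2.93 CPM (SD over 3 libraries each; edgeR, adjusted p = 1.4e-06), the direction opposite to Lat2, and the part of shared reads in either value was not tested.

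**Figure D2:**
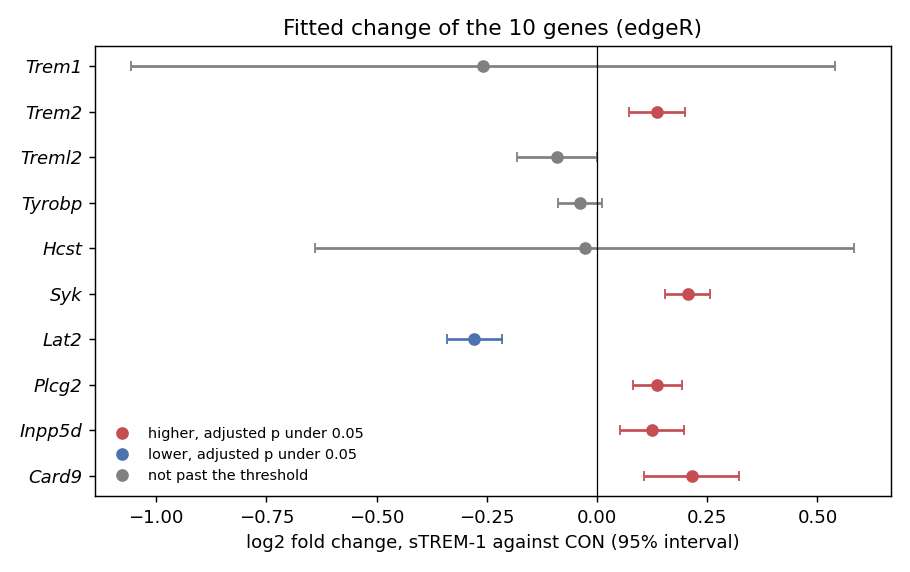
Points are log2FC values of sTREM-1 against CON from edgeR (horizontal axis), with bars for 95% intervals, red for higher and blue for lower at an adjusted p-value under 0.05 and grey for the rest. Relative to library size, Syk and Card9 have the largest rises, at 0.21 each, Lat2 lies at -0.28, and the intervals of Trem1 and Hcst are many times wider than those of the other 8 genes.

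Plcg2, Inpp5d and Card9 act after SYK. Plcg2 (chr8:117498291-117635142, + strand), the phospholipase that releases calcium-mobilizing messengers, had 184, 188 and 185 CPM in the CON libraries and 204, 199 and 209 CPM after sTREM-1. The groups did not overlap, with log2FC 0.14 (SE 0.03; edgeR, adjusted p = 0.00025).

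Inpp5d (chr1:87620312-87720507, + strand) encodes SHIP1, a lipid phosphatase that opposes PI3K and restrains DAP12 signaling. Its values were 103, 103 and 99.8 CPM in the CON group and 108, 108 and 118 CPM in the sTREM-1 group, where replicate 3 was the highest. The groups did not overlap, and the log2FC was 0.12 (SE 0.04; edgeR, adjusted p = 0.0070). Without sTREM-1 replicate 3 it was 0.08 with an adjusted p of 0.091 from edgeR, so this call rested on that library.

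Card9 encodes an adaptor that joins BCL10 and MALT1 to turn on NF-kB. It had 28.3, 28.4 and 28.6 CPM in the CON libraries and 33.1, 31.6 and 34.3 CPM after sTREM-1, a tight CON group and no overlap. The log2FC was 0.21 (SE 0.05; edgeR, adjusted p = 0.0020). Card9 on the − strand of chromosome 2 (chr2:26352176-26360918, GRCm38) shares 8274 bp with the noncoding gene Gm13562 on the other strand, which was not analysed here.

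Promoters were read from the RefSeq table of GRCm38.p6, which gives 250 bases before and 50 bases after a start, and which holds 8 windows for 7 of the 10 genes. They were searched on both strands for AGGAAGT, a motif of the kind bound by ETS factors such as PU.1, chosen after the sequences had been read. Matches lay in 4 of the 8 windows, those of Trem1, Hcst, Inpp5d and Card9, and in 9.35% of all 32851 windows of this length. Inpp5d and Card9, which rose, and Hcst, which did not pass the test, had a match within 50 bases before the start. The sequences around these matches are given below on the strand of the gene, with the motif in capitals.
Hcst: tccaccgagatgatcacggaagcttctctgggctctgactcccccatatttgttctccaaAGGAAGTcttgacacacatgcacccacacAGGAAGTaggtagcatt
Inpp5d: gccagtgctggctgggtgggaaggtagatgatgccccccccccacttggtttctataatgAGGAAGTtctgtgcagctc
Card9: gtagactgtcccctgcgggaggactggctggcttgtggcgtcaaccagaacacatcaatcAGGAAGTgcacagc
These are chr7:30419855-30419960, − strand, for Hcst, chr1:87620233-87620311, + strand, for Inpp5d and chr2:26360910-26360983, − strand, for Card9. Counted from the RefSeq start, the motif begins 46 and 17 bases upstream in Hcst, 19 in Inpp5d and 14 in Card9, and Inpp5d has another match in its first 50 transcribed bases. The match of Trem1 lies 109 bases upstream on the other strand. The windows of Trem2, Plcg2 and Syk, which also rose, do not hold these letters.

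To compare levels between genes, CPM was divided by the length of all exons in kb. Tyrobp had the highest level, with 450 ± 1.61 CPM per kb in the CON group (SD, n = 3). Lat2 followed at 62.5 ± 2.00, Plcg2 at 43.1 ± 0.494, Syk at 32.7 ± 0.152 and Trem2 at 23.5 ± 0.594 CPM per kb. Inpp5d, Card9 and Treml2 had 13.4 ± 0.260, 12.4 ± 0.0636 and 10.7 ± 0.419 CPM per kb, Hcst had 1.60 ± 0.362 and Trem1 had 0.239 ± 0.102. The order was the same after sTREM-1. The ranges of neighbours in this order did not overlap in the CON group, and after sTREM-1 those of Inpp5d and Card9 overlapped. The places of Trem2, Lat2, Syk and Plcg2 depended on the length used, and the annotation of Trem2 includes a long transcript with a retained intron. The longest protein-coding transcript was also used in place of all exons, a length chosen after the data were seen. With it, Trem2 had 107 CPM per kb in the CON group and ranked second after Tyrobp at 503 CPM per kb. Lat2 came next, at 95.3 CPM per kb. By that length, and by the longest transcript of any kind, Syk at 57.0 CPM per kb lay above Plcg2 at 43.1 CPM per kb, the reverse of their order over all exons.

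**Figure D3:**
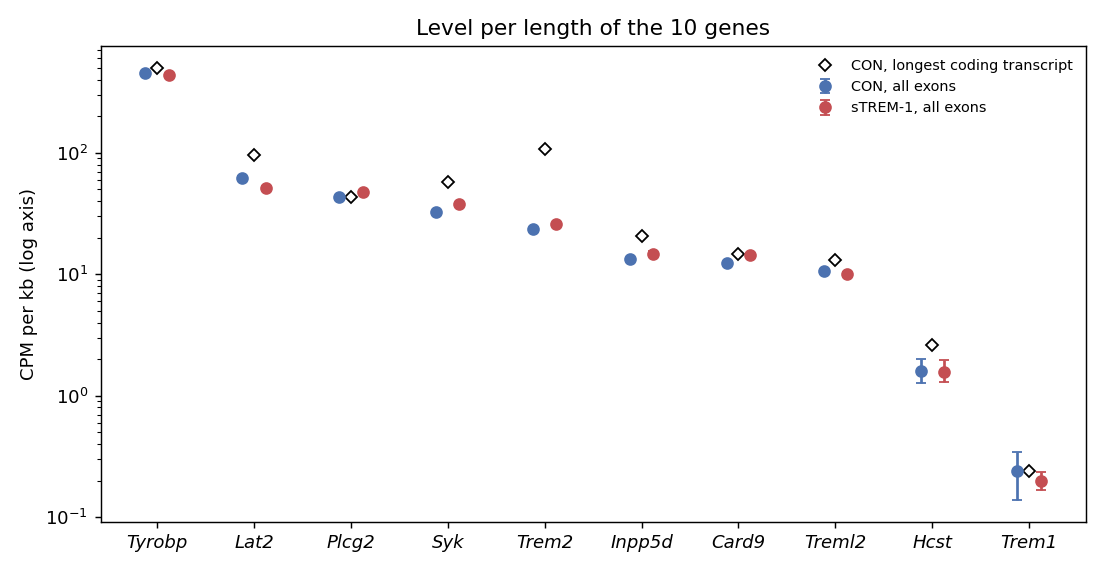
The vertical axis is CPM per kb on a log scale, with points for group means over all exons, bars for the lowest and highest library, CON in blue and sTREM-1 in red. Open diamonds use the longest protein-coding transcript in the CON group and lift Trem2 from 23.5 to 107 CPM per kb, while Tyrobp stays first and Trem1 last by either length.

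Other genes of the pathway were described in 11 lists by role, of which 104 of 107 genes were found and 91 were tested. In edgeR's test 21 were higher and 17 were lower after sTREM-1, and the median log2FC was 0.01, against -0.0017 for all tested genes. These 38 of 91 stand beside calls for 30.5% of all tested genes and 45.2% of genes of at least 20 CPM, and the counts of single lists are read against the same shares. Among SRC family kinases, which phosphorylate the ITAM, 1 of 5 was higher and 3 were lower, with a list median of -0.20. The third lower gene, Src (log2FC -0.20; edgeR, adjusted p = 0.045), is itself the median and did not pass in 6 of the 11 alternative fits, DESeq2 and no filter among them. Fyn and Lyn fell, with log2FC values of -0.33 and -0.21 (edgeR adjusted p = 1.7e-07 and 1.2e-06).

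Ligands and sheddases of TREM receptors had 3 of 7 genes higher and 0 lower. Adam17, a protease that cleaves TREM receptors from the cell surface, rose from 239 ± 3.85 to 291 ± 2.74 CPM (SD over 3 libraries each), with log2FC 0.29 (edgeR adjusted p = 1.8e-10). Apoe, a ligand of TREM-2, rose from 1630 ± 0.699 to 1856 ± 38.1 CPM, with log2FC 0.19 (edgeR adjusted p = 3.9e-09), and Lgals3 had 0.07 (edgeR adjusted p = 0.0072), a call that was lost without CON replicate 3 or sTREM-1 replicate 3 (adjusted p = 0.057 and 0.052). The other sheddase, Adam10, named for comparison, had log2FC 0.04 (edgeR adjusted p = 0.38). Pglyrp1, a ligand of TREM-1, was listed at 0 in all libraries.

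Of the other ITAM adaptors 2 were tested, and Fcer1g, the common gamma chain of Fc receptors, fell from 384 ± 4.67 to 348 ± 4.97 CPM (SD over 3 libraries each), with log2FC -0.14 (edgeR adjusted p = 1.6e-05). Of 8 tested receptors that can couple to DAP12, Cd300ld was the only gene called, with log2FC -0.16 (edgeR adjusted p = 0.0091). Without CON replicate 1 its adjusted p from edgeR was 0.052 and 0 genes of this list were called, while 2 were called, both lower, without CON replicate 3 or sTREM-1 replicate 2. With a minimum of 10 counts in every library 2 were called, 1 higher and 1 lower. Siglec15, named after its values were seen, had 49 to 52 counts in the CON group and 73 to 85 after sTREM-1, without overlap, and did not pass (log2FC 0.60, SE 0.24; edgeR, adjusted p = 0.062).

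Scaffolds and exchange factors near SYK had 3 of 14 genes higher and 1 lower. Grb2, which links receptors to RAS, and Blnk, a scaffold for PLCG2, rose with log2FC values of 0.26 and 0.15 (edgeR adjusted p = 4.3e-08 and 0.0022). Vav1, a RAC exchange factor, fell with -0.12 (edgeR adjusted p = 0.00050). Tec, a kinase that acts on phospholipase C, was the only gene called of 3 in its list, with 0.28 (edgeR adjusted p = 7.2e-08).

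In the calcium and NFAT arm 2 of 12 genes were higher and 4 lower. Itpr1, a calcium channel opened by the product of PLCG2, rose with log2FC 0.37, and Nfatc2 and the calcineurin subunit gene Ppp3ca fell with -0.24 and -0.17 (edgeR adjusted p = 5.0e-09, 0.00014 and 0.00060). The CARD9 arm was split, with 2 of 10 genes higher and 2 lower. Chuk, a kinase of the NF-kB pathway, fell with log2FC -0.18 (edgeR adjusted p = 6.6e-05). Traf6 had 0.11 with an adjusted p of 0.045, and did not pass in 9 of the 11 alternative fits. In this list 2 genes were called without a filter, by DESeq2, and without CON replicate 1, CON replicate 3, sTREM-1 replicate 1 or sTREM-1 replicate 2.

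The class I PI3K list had the most calls in 1 direction, with 6 of 11 genes higher and 1 lower and a median log2FC of 0.22. Pik3cg, the catalytic subunit p110 gamma, and its regulatory partner Pik3r6 rose with log2FC values of 0.32 and 0.33 (edgeR adjusted p = 1.1e-08 and 0.0013). Pik3r5, the other partner, rose with 0.29. Pik3r2 rose with 0.31, while Pik3r1, which encodes p85 alpha, fell with -0.16 (edgeR adjusted p = 2.9e-06 and 0.0033). The list also holds Inppl1, a lipid phosphatase that opposes PI3K, which rose with 0.22 (edgeR adjusted p = 3.2e-06). Pik3r5 and Inppl1 were picked for mention after their values were seen.

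Inhibitory receptors and phosphatases, which restrain ITAM signals, had 3 of 16 genes higher and 4 lower. Siglece had 6.30 ± 0.441 CPM in the CON group and 4.51 ± 0.214 CPM after sTREM-1 (SD over 3 libraries each), with log2FC -0.48 (edgeR adjusted p = 0.0030). Lilrb4a fell with -0.21, whereas Pirb rose with 0.30 (edgeR adjusted p = 1.7e-08 and 3.4e-05). The lists thus held calls in both directions except for ligands and sheddases and for lists with a single call or none.

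**Figure D4:**
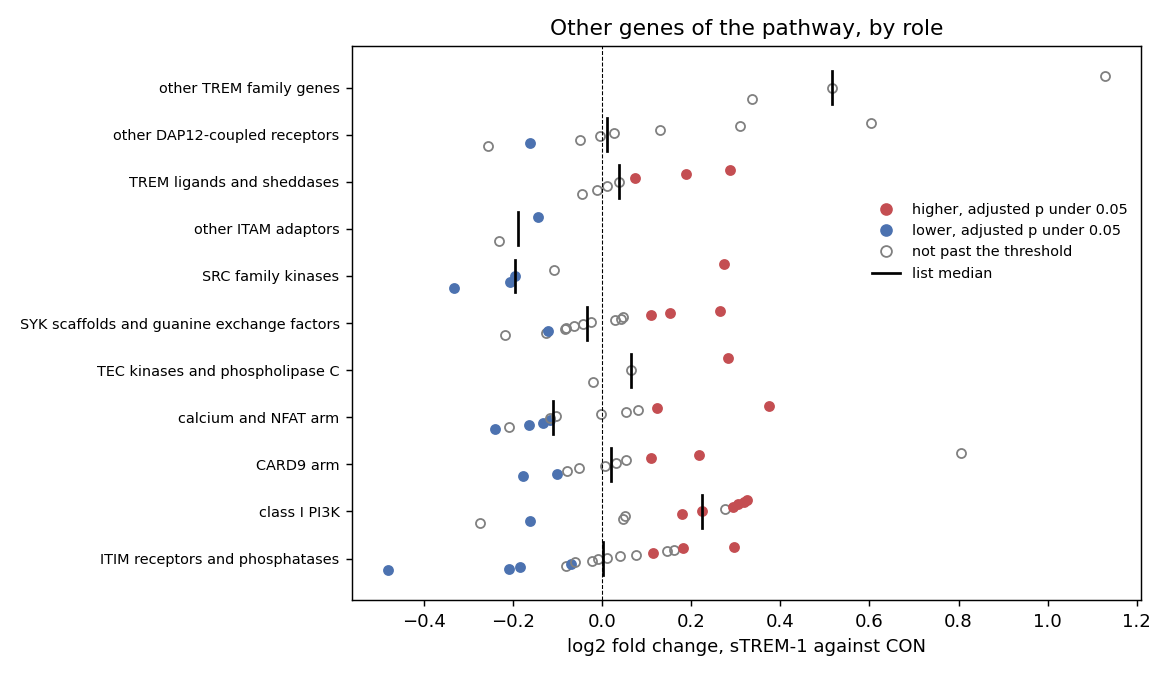
Each circle is 1 tested gene at its log2 fold change (horizontal axis, edgeR), arranged by role, with filled red and blue circles for genes higher and lower at an adjusted p-value under 0.05, open circles for the rest and a black line for the list median. The class I PI3K list has its median at 0.22, the SRC family list at -0.20, and the open circle farthest to the right is Treml4, a gene of few counts.

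The genes whose log2 CPM followed Trem2 most closely over the 6 libraries, among 14110 tested genes outside the 10, were Calm3, Orc6 and Sp3os, with Pearson correlations of 0.997, 0.995 and 0.995. For Tyrobp they were Gm31834, Igsf8 and Grwd1, with 0.996, 0.995 and 0.992. Over 0.95 there were 356 genes for Trem2 and 65 for Tyrobp. These 6 points share their libraries, depth and group difference, and the values are a description only.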

How the data were processed

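The data are RNA-seq libraries of BV2 cells, 3 of the CON group and 3 of the sTREM-1 group. Per the methods, FastQC served for read quality, RSEM for quantification and edgeR for differential expression. The submitters' processing notes name HISAT2 2.0.4 and the builds hg19 and GRCh38, which are human, whereas the symbols are of mouse. Annotation and strand are not given in the sources used here. The deposited counts are raw whole numbers per gene symbol, in which overlapping or similar genes may share reads. The methods give 4 samples per group, and the table holds 3.

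Low genes were removed by filterByExpr of edgeR 4.0.16 (minimum 10, R 4.3.3). After TMM scaling, a quasi-likelihood F test compared the groups without covariates, and SEs were derived from its F values. Log2 CPM for correlations had a prior count of 2. Exon lengths and coordinates are those of GENCODE M21 (GRCm38), matched by symbol. The procedure was tested on simulated counts. The 10 genes, the 11 pathway lists and the marker lists were chosen with earlier results of these data known. From each pathway list, the text names at most 3 called genes of largest change and any gene alone in its direction. Other names are marked or given for context. A few genes the rule names are not reported here. Alternatives were RLE size factors, other filters, DESeq2 1.42.0, a replicate block, leaving out each library, a 1.5-fold minimum, other lengths and, added later, ratios to Actb and Gapdh.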

Additional observations from a re-analysis of the deposited data

How the results depend on the processing

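Of the 10 genes, 6 were called, as with RLE size factors, no filter, a minimum of 10 counts in each library, DESeq2 and the replicate block. The share of all genes called moved from 30.5% to 18.4% with no filter and 16.8% with DESeq2, both over 22760 genes, and to at most 26.8% without single libraries, so the count of 6 stands beside different backgrounds. Leaving out single libraries gave 5 to 6, with 5 without sTREM-1 replicate 3, where Inpp5d had an adjusted p of 0.091. With a 1.5-fold minimum 0 were called, as for the pathway lists, because no called gene among them changed that much. Of the pathway genes 38 were called, 40 with the replicate block and 32 to 37 when single libraries were left out. Over all tested genes same-numbered libraries did not deviate together (correlations of -0.018, -0.033 and -0.014). Such a value over all genes cannot show whether the numbers pair the libraries for some genes. The replicate block called 32.7% of all tested genes, against 30.5% in the main fit. Leaving out single libraries moved the log2FC of Trem1 between -0.54 and 0.089, with 0.089 without CON replicate 1. For Hcst it moved between -0.23 and 0.16, with 0.16 without CON replicate 1, 0.09 without sTREM-1 replicate 2 and 0.03 without sTREM-1 replicate 3. Relative to Gapdh in place of library size, a setting chosen after seeing the data, the log2 difference turned to -0.104 for Trem2, -0.036 for Syk, -0.104 for Plcg2, -0.116 for Inpp5d and -0.026 for Card9. These groups overlapped, with sTREM-1 replicate 3 above all CON libraries for each gene, and the cause was not tested. Relative to Actb the log2 difference was 0.017 for Trem2, 0.017 for Plcg2 and 0.0043 for Inpp5d, with groups that overlapped. It was 0.085 for Syk, 0.094 for Card9 and -0.40 for Lat2, without overlap. No member was removed by the filter, so the planned check of removed members on raw counts gave no value. Depth limits Trem1 and Hcst, which had fewer than 100 counts in every library.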
